A study of Mus musculus with 4 samples.

Results

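Fras1, Frem1, Frem2 and Grip1 encode a protein complex that anchors embryonic epithelia to their basement membranes, and the accessible chromatin around these 4 genes was examined in the surface ectoderm of the mouse face. The rows of 2 lists of accessible chromatin were taken when their centre lay within 150 kb of the start site of the principal transcript of one of the genes. This gave 44 of 65467 control peaks and 5 of 3103 AP-2-dependent regions, 49 of the 68570 rows in all. FRAS1 and FREM2 are very large transmembrane proteins whose extracellular parts lie beneath the epithelium, and FREM1 is a related secreted protein that joins them. GRIP1 is a cytoplasmic scaffold with PDZ domains that brings FRAS1 and FREM2 to the basal side of the cell. Loss of a member of the complex causes embryonic blistering in mice, and in people FRAS1, FREM2 and GRIP1 are known for Fraser syndrome and FREM1 for related facial and renal malformations.

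ATAC-seq, in which a transposase cuts into nucleosome-free DNA, was performed on facial surface ectoderm of embryonic day 11.5, in 2 control and 2 EDKO libraries of 50000 cells each. EDKO embryos (Crect; Tfap2a flox/flox; Tfap2b flox/flox) lacked the transcription factors AP-2α and AP-2β in the ectoderm, and control littermates had no Crect and carried a floxed and a wild-type allele of each gene (Tfap2a flox/+; Tfap2b flox/+). Every embryo thus carried floxed alleles. Crect is a Cre transgene driven by an intronic enhancer of Tfap2a, and per the study's methods it can recombine more broadly than the ectoderm, for which sires were screened. Ectoderm was pooled from the facial prominences after removal of the mesenchyme.

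The control peaks were called on the combined control libraries, per the study's methods. The AP-2-dependent regions were called with the control libraries as the signal and the EDKO libraries as the background, each pair combined, so a region marks chromatin that was less accessible in EDKO ectoderm. Each peak carries 1 value from its combined call, with no value per library, no error between replicates and no known number of reads behind it, and none of the comparisons here has a p-value. The value used is the −log10 p at the summit, a measure of strength that is compared only within its own list. In bulk tissue, fewer cells of a type and less accessibility per cell cannot be told apart. Start sites of 7 of 7 genes of surface ectoderm (Krt8, Krt18, Epcam, Cdh1, Trp63, Esrp1 and Grhl2) lay in a control peak. Of 4 mesenchymal genes, the start sites of Prrx1, Twist1 and Col1a1 did and that of Pdgfra did not, beside 61.1% of all 21829 protein-coding genes. What other cells contributed to the peaks described here was not tested.

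Chromatin at the 4 loci was open at few to many sites. Within 150 kb of the start site, AP-2-dependent regions were found at Fras1, Frem2 and Frem1 but not at Grip1. Frem2 had 22 control peaks and 3 regions, Fras1 had 9 and 1, Frem1 had 4 and 1, and Grip1 had 9 and 0. Having at least 1 region within the same distance was also true of 28.3% of protein-coding genes, and having at least 3, as Frem2 did, of 2.73%. These shares were not matched for the number of control peaks, of which Frem2 had more than 81.0% of genes. Of the control peaks at the 4 loci 5 of 44, or 11.4% (95% Wilson interval 4.95 to 24.0%, counting error only), overlapped a region, beside 4.48% of all control peaks. Of the 44 peaks, 41 were distal, centred over 5 kb from every principal start site, and start-site peaks seldom held a region. Among distal peaks the share was 9.76% (interval 3.86 to 22.5%), beside 5.74% of all distal peaks. When the overlap had to cover at least 50% of both, the share of the 44 was 4.55%, beside 2.87% of all. When both lists were held to an area of 500 or more, the Fras1 and Frem1 regions dropped out. Frem2, then with 2 regions, was the 1 gene of the 4 with any. With 300 kb on each side Grip1 had 2 regions, and with 100 kb Fras1 had 0. In the 11.4% above, Frem2 supplied 3 of the 5 peaks out of its 22 (13.6%), and the other loci 2 of 22 (9.09%, interval 2.53 to 27.8%).

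**Figure D1:**
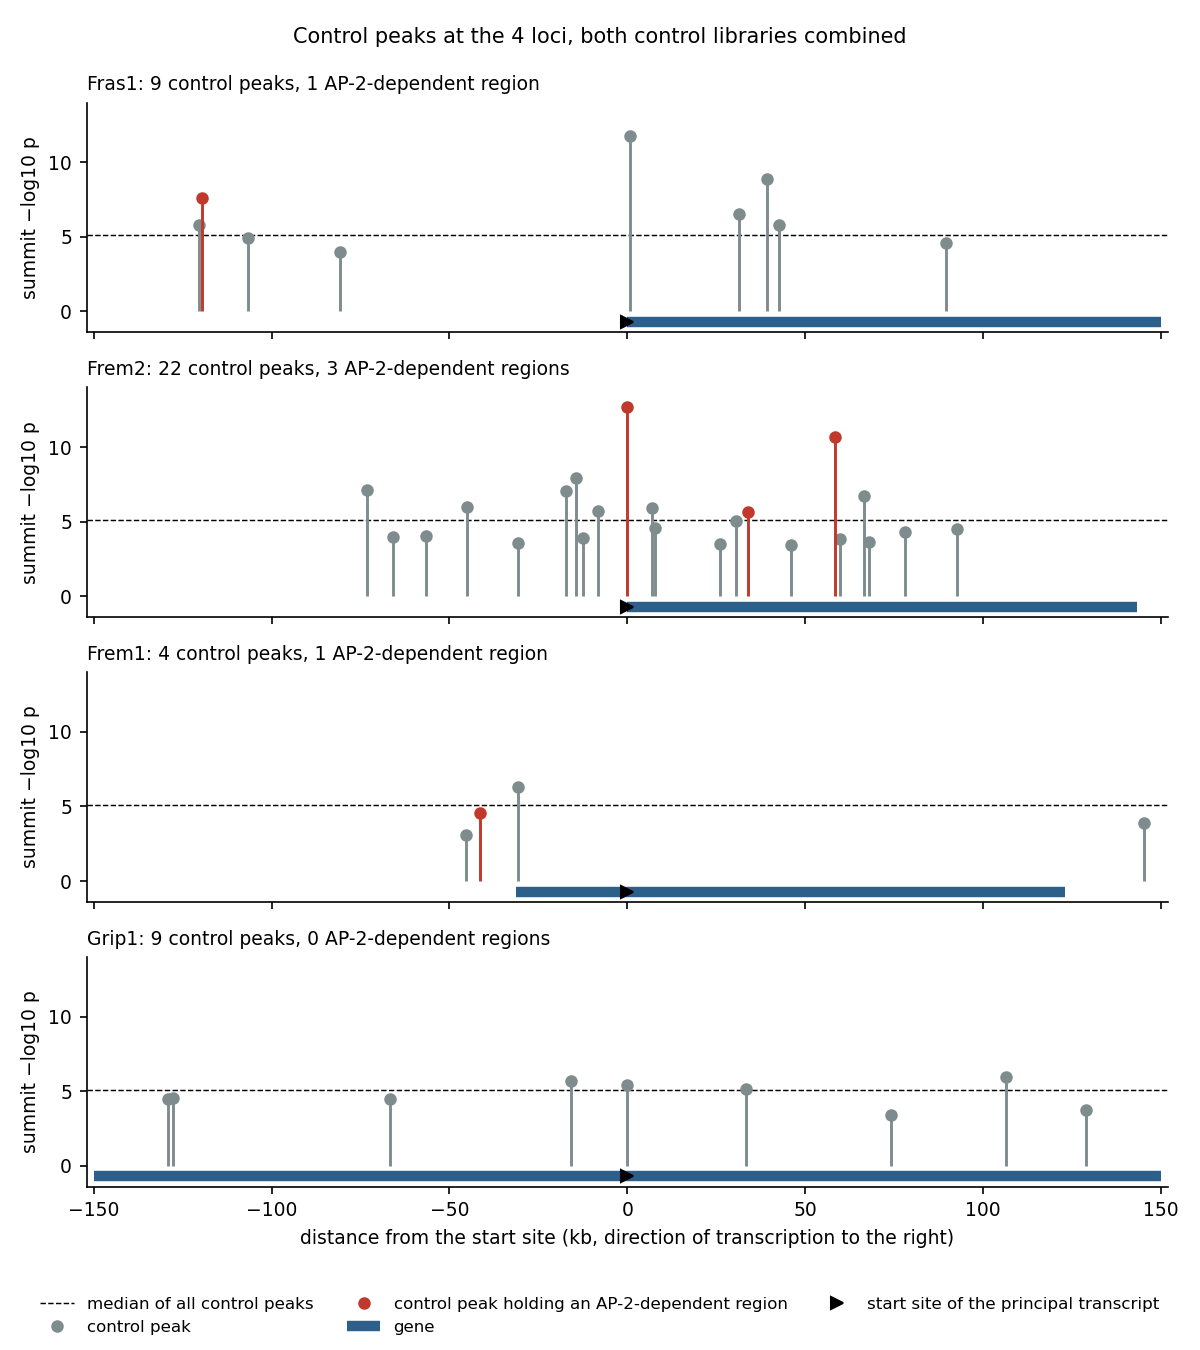
Control peaks within 150 kb of the start site of each gene, as the −log10 p at the summit (vertical axis) against the distance of the peak centre from the start site in kb (horizontal axis, transcription to the right). Red stems hold an AP-2-dependent region, grey stems do not, the blue bar is the gene, and the dashed line is the median of all control peaks (5.10). The highest stems stand at the start sites of Frem2 (12.7) and Fras1 (11.7).

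The sequences of the 5 regions are shown because they are the sites called less accessible in EDKO ectoderm within 150 kb of the 4 start sites. They are from the GRCm38 assembly, on the plus strand, and at most 300 bases are given, from the start of the region, around its summit or to its end. Capitals mark 3 AP-2 strings searched on both strands, namely GCCNNNGGC, the form with 4 bases between GCC and GGC, and GCCNNNGGG. A stretch can match more than 1 of these forms.
Fras1, chr5:96253903-96254202, 119.9 kb upstream of the start site: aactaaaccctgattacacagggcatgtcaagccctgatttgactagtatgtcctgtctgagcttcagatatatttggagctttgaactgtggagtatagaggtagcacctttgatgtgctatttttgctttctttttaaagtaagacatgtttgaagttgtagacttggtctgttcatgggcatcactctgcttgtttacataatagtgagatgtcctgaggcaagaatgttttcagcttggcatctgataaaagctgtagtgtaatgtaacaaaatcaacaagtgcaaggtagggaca
Frem2, chr3:53599339-53599638, 57.9 kb downstream, in intron 2: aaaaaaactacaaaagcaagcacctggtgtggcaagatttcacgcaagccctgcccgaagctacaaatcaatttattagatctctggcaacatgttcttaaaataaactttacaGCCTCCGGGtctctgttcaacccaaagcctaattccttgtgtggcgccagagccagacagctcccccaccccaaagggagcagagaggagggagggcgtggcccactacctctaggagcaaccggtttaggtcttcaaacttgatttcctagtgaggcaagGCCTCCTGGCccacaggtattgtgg
Frem2, chr3:53623242-53623541, 34.0 kb downstream, in intron 2: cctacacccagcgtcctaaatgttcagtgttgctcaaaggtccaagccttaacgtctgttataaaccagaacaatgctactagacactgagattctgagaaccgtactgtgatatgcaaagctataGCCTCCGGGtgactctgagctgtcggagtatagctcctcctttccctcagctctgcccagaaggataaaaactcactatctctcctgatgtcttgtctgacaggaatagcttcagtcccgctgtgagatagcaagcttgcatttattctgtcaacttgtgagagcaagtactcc
Frem2, chr3:53658063-53658362, 0.888 kb upstream: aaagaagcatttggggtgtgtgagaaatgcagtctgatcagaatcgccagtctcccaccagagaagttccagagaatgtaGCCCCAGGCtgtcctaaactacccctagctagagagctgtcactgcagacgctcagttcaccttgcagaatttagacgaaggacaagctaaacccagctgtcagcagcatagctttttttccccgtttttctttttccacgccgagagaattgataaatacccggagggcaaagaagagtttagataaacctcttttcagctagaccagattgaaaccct
Frem1, chr4:83062326-83062575, 41.3 kb upstream: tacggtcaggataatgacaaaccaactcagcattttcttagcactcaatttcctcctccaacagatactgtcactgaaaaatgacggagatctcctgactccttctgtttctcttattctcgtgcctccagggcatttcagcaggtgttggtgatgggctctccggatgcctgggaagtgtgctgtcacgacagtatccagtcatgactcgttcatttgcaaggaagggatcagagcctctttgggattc

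Frem2 (ENSMUSG00000037016) lies on the minus strand of chromosome 3, at chr3:53513938-53657355, and has 24 exons. It had more control peaks than 81.0% of protein-coding genes, which had a median of 11, and more AP-2-dependent regions than 97.3%. Of its 22 control peaks 12 lay in introns of the gene and 10 upstream, from 73.1 kb before to 92.7 kb after the start site. Intron 2, which spans 58.0 kb, held 7 of them and 2 of the 3 regions. The median −log10 p of the Frem2 peaks was 4.79, with a range of 3.42 to 12.7, against 5.10 for all control peaks. Of the 22 peaks, 10 were above the median of the whole list, which includes the peaks at start sites. Control peaks over 5 kb from every principal start site had a median of 4.66.

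The strongest Frem2 peak covered its start site, at chr3:53655929-53658992. It was 3064 bp wide, with a −log10 p of 12.7 that was above 97.3% of all control peaks and above 89.4% of those centred no more than 1 kb from a principal start site. An AP-2-dependent region lay inside it at chr3:53658032-53658454, from 677 to 1099 bp upstream of the start site, with a −log10 p of 7.93 that was above 89.9% of regions. A region was held by 1.51% of the control peaks that were centred at most 5 kb from a principal start site, and by 0.995% (131 of 13165) of those centred at most 1 kb away. The 4 loci had 3 control peaks as near as 5 kb to a principal start site, and the Frem2 peak was the 1 with a region. The peak over the most upstream start site of Frem1 counts as distal by this measure. The region filled 13.8% of the peak, whereas the median over all regions was 62.8% and 9.25% of regions filled as little or less. Its summit stood 718 bp upstream of the summit of the control peak, a distance reached by 6.25% of regions. The region thus lay on the upstream flank of the promoter peak and not at its summit, which was 140 bp from the start site.

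The promoter of Frem2 up to the start site is shown because it holds the summit of that peak and no part of the region. It comes from the RefSeq table for GRCm38.p6, on the minus strand, with the TEAD string CATTCC and the PBX string TGATTGACA in capitals. TEAD factors are the DNA-binding partners of YAP, and PBX factors are homeodomain proteins with roles in facial development.
Frem2 promoter, chr3:53657356-53657605: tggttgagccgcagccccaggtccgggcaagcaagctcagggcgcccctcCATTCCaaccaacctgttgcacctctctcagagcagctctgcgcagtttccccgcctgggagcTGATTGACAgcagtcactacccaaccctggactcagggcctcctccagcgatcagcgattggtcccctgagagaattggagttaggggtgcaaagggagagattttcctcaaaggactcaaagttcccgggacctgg
The PBX string was centred 7 bp from the summit of the control peak, and 0.933% of all control peaks had this string within 100 bp of the summit. Of 32851 promoters in the table, 0.432% held it and 14.7% held the TEAD string.

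The second site at Frem2 was in intron 2, 57.9 kb after the start site. The control peak at chr3:53598213-53599919 had a −log10 p of 10.7, above 91.7% of all control peaks and above 97.9% of the distal ones, whose centre was over 5 kb from any principal start site. The region within it, chr3:53599219-53599638, had a −log10 p of 7.03, above 87.2% of regions. Both summits fell on the same base, which was so for 21.7% of regions. The third, at chr3:53623242-53623548 and 34.0 kb after the start site, was weaker, with a −log10 p of 4.61, and lay in a control peak of 5.64. Among the 19 Frem2 peaks without a region were sites 14.5, 73.1 and 17.2 kb upstream, with −log10 p of 7.90, 7.11 and 7.08, above 79.1%, 73.7% and 73.4% of the list. The peak 66.7 kb after the start site, also in intron 2, reached 6.73 and held no region.

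**Figure D2:**
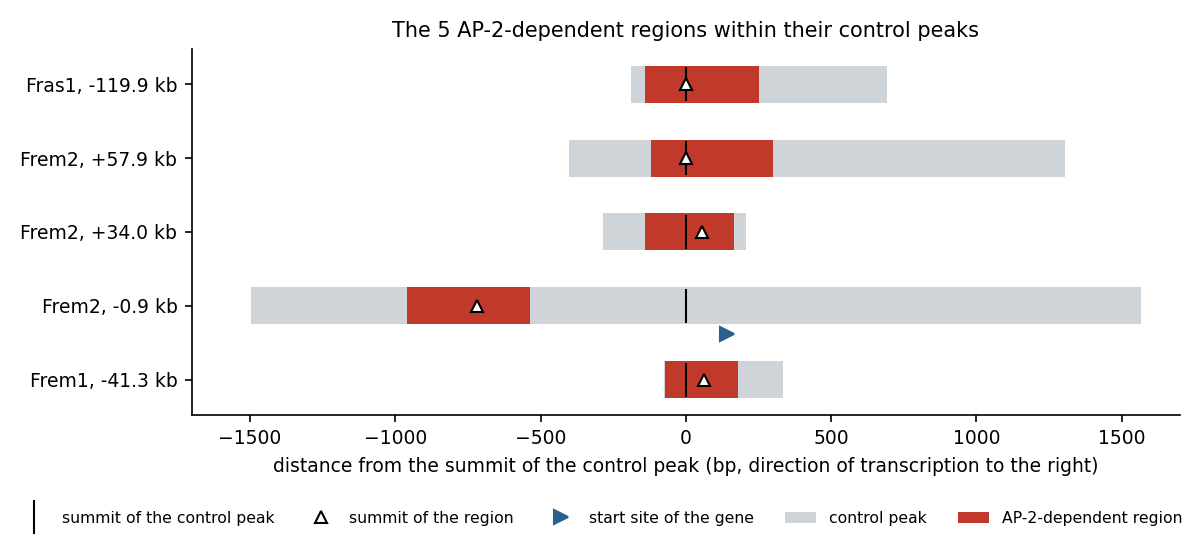
The 5 AP-2-dependent regions (red) within their control peaks (grey), in bp from the summit of the control peak (horizontal axis, transcription to the right). The black line marks the summit of the control peak, the triangle that of the region and the blue arrowhead the start site of Frem2. Summits lie 0 to 64 bp apart in 4 of the 5 and 718 bp apart at the Frem2 promoter.

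Fras1 (ENSMUSG00000034687) lies on the plus strand of chromosome 5, at chr5:96373955-96784728, with 74 exons. Its 9 control peaks had the highest median −log10 p of the 4 loci, 5.82 with a range of 3.95 to 11.7, and 37.5% of genes had fewer peaks. The peak over the start site, chr5:96372985-96376186, was 3202 bp wide and had a −log10 p of 11.7, above 95.1% of all control peaks and 80.5% of the promoter peaks, centred at most 1 kb from a principal start site. It held no AP-2-dependent region, in contrast to the Frem2 start peak of like width and strength. The next strongest was in intron 2, 39.3 kb after the start site, with a −log10 p of 8.87 and also no region. Intron 2 spans 142 kb and held 4 control peaks, all without a region.

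The region assigned to Fras1 lay 119.9 kb upstream of its start site, at chr5:96253903-96254297. This position is in intron 7 of the neighbouring gene Mrpl1, a mitochondrial ribosomal protein gene whose start site is nearer, 44.0 kb away. The region had a −log10 p of 4.26, above 44.1% of regions, and its control peak 7.57, the third highest of the locus and above 77.0% of the list. Both summits fell on the same base. Which gene this site acts on was not tested. No region lay between it and 150 kb after the start site, but 2 lay beyond that limit in intron 14 of Fras1, 205.0 and 206.3 kb after the start site, with −log10 p of 3.85 and 5.34. Another was 197.5 kb upstream, between protein-coding genes and nearest to Cnot6l.

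Frem1 (ENSMUSG00000059049) lies on the minus strand of chromosome 4, at chr4:82897920-83052339. Its principal start site, chr4:83021102, was in no control peak. The most upstream start site, 31.2 kb before it, was in a peak of 1494 bp at chr4:83051094-83052587 with a −log10 p of 6.29, above 66.3% of the list and the strongest of the 4 Frem1 peaks. The other 3 were weak, from 3.08 to 4.53. The AP-2-dependent region, chr4:83062326-83062575, lay between protein-coding genes, 41.3 kb upstream of the principal and 10.1 kb upstream of the most upstream start site. It was the weakest of the 5 regions, with a −log10 p of 4.03 that was above 32.9% of regions, in a control peak of 4.53. Frem1 had more control peaks than 17.3% of genes, and more regions than 71.7%, which had none.

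Grip1 (ENSMUSG00000034813) lies on the plus strand of chromosome 10, at chr10:119453830-120087261. Its principal start site, chr10:119819512, was in a control peak of 754 bp with a −log10 p of 5.44, which was above 14.4% of promoter peaks. The start site of the longest form, 366 kb upstream and outside the distance searched, was in a wider peak of 3146 bp with a −log10 p of 8.28. All 9 control peaks within 150 kb were inside the gene, with −log10 p from 3.41 to 5.93, and 4 of them were above the median of the list. The strongest were in intron 2, 106.6 kb after the start site (5.93), and 15.7 kb before it, in intron 1 of longer transcripts (5.68). None of the 9 held an AP-2-dependent region, and 0 of 9 allows a share of up to 29.9% by the Wilson interval. A region within the gene lay outside the distance, 175.1 kb before the principal start site in intron 1 of the longer transcripts, with a −log10 p of 4.51. A further 1 was 275.8 kb after the start site, in intron 7 of Helb, a DNA helicase gene.

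The outcome for a site near the limit of 150 kb depends on that limit. The outermost control peaks inside it were 120.5 kb (Fras1), 92.7 kb (Frem2), 145.4 kb (Frem1) and 129.0 kb (Grip1) from the start site, with −log10 p of 5.82, 4.53, 3.92 and 4.46. The nearest outside were 164.0, 155.6, 161.5 and 174.2 kb away, with −log10 p of 8.40, 3.99, 7.76 and 4.08. The peak closest to the limit on either side was thus the one at Frem1, 145.4 kb away.

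**Figure D3:**
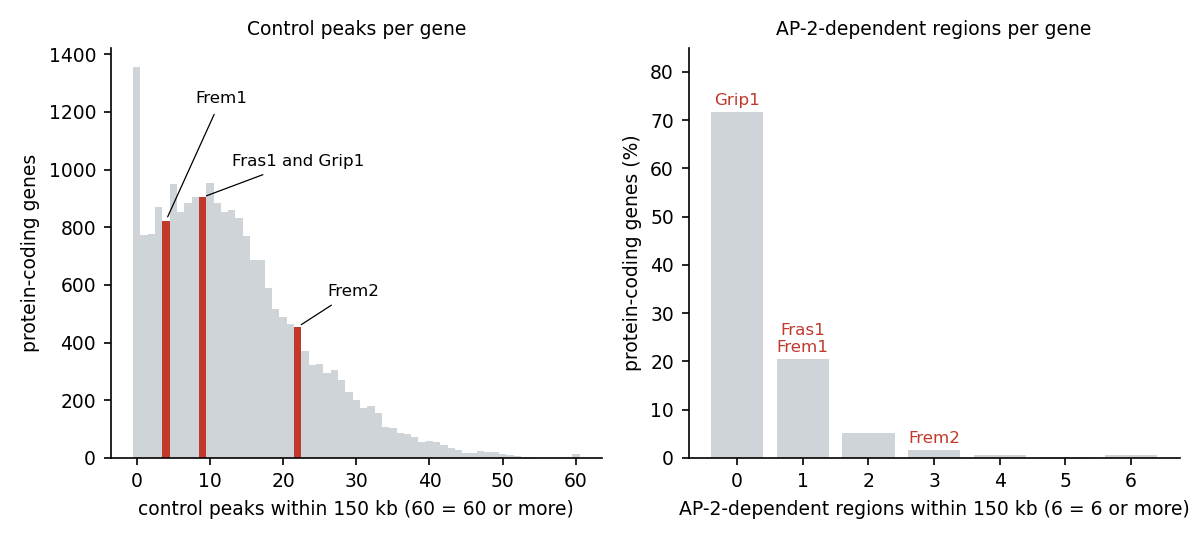
Number of protein-coding genes (left) or their percentage (right) by the number of control peaks and of AP-2-dependent regions within 150 kb of the start site. The red bars and names mark the 4 genes. Frem2, with 22 peaks and 3 regions, is on the right side of both distributions, and Grip1 has 0 regions as do 71.7% of genes.

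Over the 4 loci, the control peaks had a median −log10 p of 4.97 (n = 44), close to the 5.10 of all control peaks, and 21 of 44 were above the latter. Summits of 24 lay in introns and of 3 in exons of the member gene, 2 lay in Mrpl1 and 15 between protein-coding genes. Other kinds of genes were not looked up. The 15 include the peak over the Frem2 start site, whose summit was 140 bp upstream of it. The 5 peaks with a region had a median of 7.57 and the 39 without a median of 4.61. All peaks with a region in the list had a median of 6.92. Of the 3 peaks at or above the 90th percentile of the list 2 held a region, where 6.74% of all such peaks did. From the 50th to the 90th percentile it was 2 of 18 beside 7.20%, and below the 50th 1 of 23 beside 1.85%. Of the 41 distal peaks 4 held a region (9.76%, interval 3.86 to 22.5%), where 5.74% of all distal peaks did. All 5 regions were inside a control peak, as were all 3103, and 3 of the 5 were above the median −log10 p of regions (4.40).

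Any of the 3 AP-2 strings was found in 3 of the 5 regions, beside 68.2% of all regions (2094 of 3072). The 3 were those at Frem2, and the Fras1 and Frem1 regions held none of these forms. GCCNNNGGC, a palindromic form, was in the region upstream of the Frem2 start site, 66 bp from its summit, and in 29.7% of all regions. GCCNNNGGG was in both Frem2 intron 2 regions, 61 and 21 bp from their summits, and in 47.6% of all regions. In these 2 regions the 9 bases were the same, gcctccggg, which occurred in 1.24% of regions (38 of 3072). The 9 bases were picked from these 2 regions before they were counted, so this share is descriptive only. The stronger of the 2 regions also held the form with 4 bases between GCC and GGC, present in 23.5% of regions. It held the grainyhead (GRHL) string AACCGGTT 58 bp from the summit as well, found in 0.456% of regions, GRHL factors being regulators of epithelial genes. A match is no proof of a bound site, and these forms are not all that AP-2 proteins can bind.

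Around the summits of the control peaks, within 100 bp, the string of the p53 family was at 8 of 44 peaks (18.2%), beside 8.68% of all control peaks. The family includes p63, a regulator of the basal epithelium. Fras1 and Frem2 had 3 such peaks each, Grip1 2 and Frem1 0. The Frem2 peaks 73.1 and 14.5 kb upstream had it 3 and 9 bp from the summit, as caagggctcacttg and caagtttgaacatg, and neither held an AP-2-dependent region. Over whole regions the p53 family string was in 1 of the 5, the Frem2 region 34.0 kb after the start site, as cttgtgagagcaag and 178 bp from the summit, and in 17.9% of all regions. Within 100 bp of the summit it was in 0 of 5 regions and 10.5% of all. GCCNNNGGC was at 3 of 44 peaks (6.82%, all control peaks 14.4%), and 1 of these each was at Fras1, Frem1 and Grip1. Without 4 peaks of repeated sequence it was at 1 of 40 (2.50%), that at Grip1. The form with 4 bases between GCC and GGC was at 0 of 44 (all 12.8%) and GCCNNNGGG at 4 of 44 (9.09%, all 23.3%). The TEAD string GGAATG was at 7 of 44 (15.9%, all 17.9%), the AP-1 string TGANTCA at 2 (4.55%, all 5.80%) and that of the insulator protein CTCF at 2 (4.55%, all 6.21%). The median GC content of these windows was 47.8% at the 4 loci and 53.2% over all control peaks, and the part of base composition in the string shares was not tested.

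Other genes of the epithelial basement membrane were counted in the same way, and the counts stand beside the 28.3% of all protein-coding genes with at least 1 region and the 2.73% with at least 3. Of 6 partners and paralogs of the complex 2 had a region, Vwa2 with 1 and Npnt with 2, while Frem3, Grip2, Itga8 and Cspg4 had none. Vwa2 encodes AMACO, a basement membrane protein linked to the FRAS1 complex, and Npnt encodes nephronectin, a ligand of the integrin α8 chain made by Itga8. Their 75 control peaks overlapped a region in 3 cases (4.00%, interval 1.37 to 11.1%). A list of 9 genes covered the hemidesmosome, the attachment structure of stratified epithelia, and epithelial anchoring more widely, so not every gene on it is a hemidesmosome gene. Of these 9 genes 5 had a region: Itga3 had 3, Itgb4 2, and Lama3, Lamb3 and Col17a1 1 each. The integrin gene Itga6, the tetraspanin gene Cd151 and the plakin genes Dst and Plec had none, and 8 of 230 peaks of the list held a region (3.48%, interval 1.77 to 6.71%). Of 11 genes of the basement membrane core 7 had a region. Lamb1, Hspg2, Col4a1 and Col4a2 had 2 regions and Lama1, Lama5 and Lamc1 had 1. Agrn, Nid1, Nid2 and Col7a1 had none, and 9 of 158 peaks held a region (5.70%, interval 3.03 to 10.5%). Col4a1 and Col4a2, which share a bidirectional promoter, count the same 2 regions. The median number of control peaks per gene was 13.5, 24 and 12 in the 3 lists, in this order. Over all protein-coding genes it was 11, and the shares of genes with a region were not matched for it. The interval of the 11.4% at the Fras1-Frem loci overlapped those of the 3 lists. Of the 30 genes counted, Frem2 and Itga3 reached 3 regions. A region of Itga3, at −148.9 kb from its start site, lay just inside the limit of 150 kb, and no other window was run for the 3 lists.

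**Figure D4:**
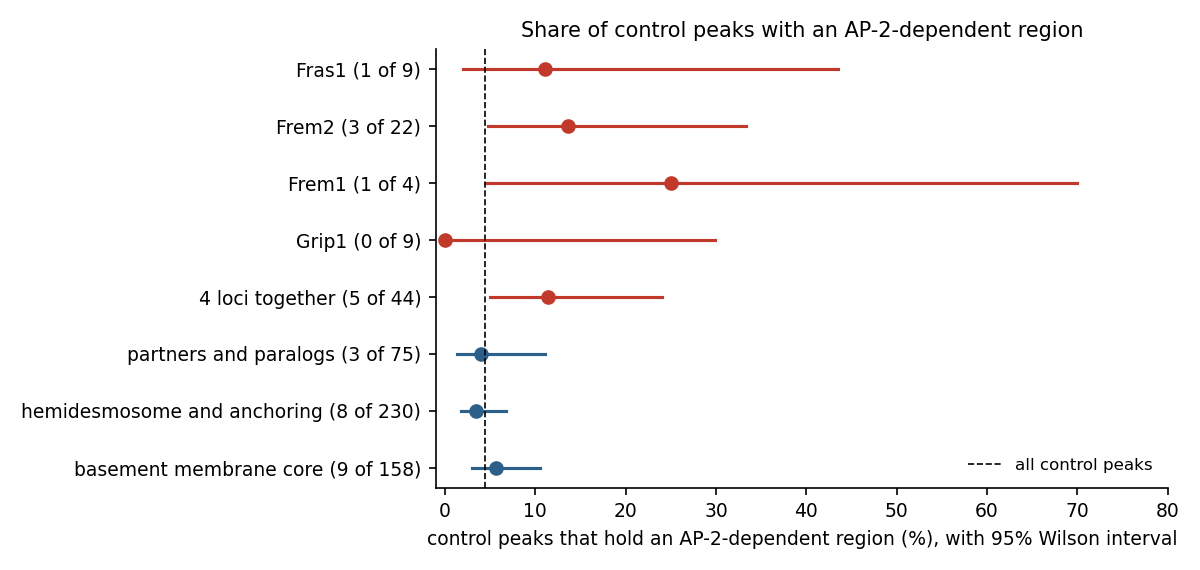
Percentage of control peaks that hold an AP-2-dependent region (points, with 95% Wilson intervals as lines) for each of the 4 loci, the 4 together and the 3 lists of basement membrane genes. The dashed line is the value over all control peaks (4.48%), which include start-site peaks. Over all distal control peaks the value was 5.74%. The intervals of the single loci are wide, from 4.75 to 33.3% at Frem2 and from 4.56 to 69.9% at Frem1.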

How the data were processed

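The authors aligned read pairs of 4 ATAC-seq libraries to mm10 with Bowtie2, allowing up to 10 placements of a pair. They used Genrich to call peaks on the combined control libraries and on these against the combined EDKO libraries. The name of the control list carries the numbers 1 and 3 while the labels number the control libraries 1 and 2, so which libraries entered it rests on the methods. The deposited −log10 p at the summit is not adjusted for multiple positions. Genrich's area under the curve and the score derived from it (1000 times area over width, capped at 1000) are deposited scores made by the authors, and the summit offset is deposited as well. No read counts were used, so intervals cover counting of peaks only. H3K4me3, RNA and coverage data were not analysed here.

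Start sites were those of the APPRIS principal transcript in GENCODE release M21 (GRCm38) on 21 chromosomes. A shared base (1 bp) counted as overlap, and positions count from 1. Strings were searched in the GRCm38 sequence with pysam 0.24.0 (Python 3.11.15), within 100 bp of summits or over whole regions. All shares are descriptive and no test was run, since the 2 lists used hold no value per library. Overlaps were tested on simulated intervals against bedtools 2.31.1 (0 differences). Promoters of 3 of the 4 genes matched the RefSeq table by symbol. The 4 members, the gene lists and the strings were chosen with earlier results of these data known. Another gene was left out of the lists and its result is not reported here. The regions named are all those of the members, with the peaks at the start sites and the 3 strongest per locus. Further Frem2 peaks without a region, those beyond 150 kb and the peaks of repeated sequence were named after their values were seen. For 6 results, 34 alternative values were computed, over window, start site, position, area, overlap, string form, rule of assignment to genes and removal of repeated sequence.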

Additional observations from a re-analysis of the deposited data

How the results depend on the processing

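Of 34 alternative values 25 stayed close to those reported (counts within 1.5 times, shares and medians within their 95% intervals) and 9 moved. With 300 kb on each side there were 77 control peaks and 10 AP-2-dependent regions at the 4 loci, Grip1 then having 2. With the basal plus extension rule, which reaches 5 kb upstream, 1 kb downstream and up to 1000 kb to the next gene, the regions numbered 9. Where peaks of both lists needed an area of 500 or more there were 29 control peaks with a median −log10 p of 5.82, and 2 regions, both at Frem2, so that 1 gene of the 4 had a region. The share of control peaks with a region was then 6.90%, beside 2.46% of all control peaks. When the overlap had to cover at least 50% of both, the share was 4.55%, beside 2.87% of all, since the regions at the Frem2 start site and 57.9 kb into the gene and that at Fras1 fill less of their peaks. The AP-2 string ending in GGG was in 2 regions, where GCCNNNGGC was in 1. With 100 kb on each side Fras1 had 0 regions, and 2 of the 4 genes had 1 or more. An alternative added after the lists were examined left out 4 control peaks of repeated sequence, and 5 of the remaining 40 (12.5%) held a region. No paired analysis was possible because the 2 peak lists used here give 1 value per peak and none per library, and for the same reason no library could be left out. The read depth behind a peak is not known.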

Other observations

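Of the 44 control peaks, 40 had sequence that occurs at 1 place in the assembly, judged by the median number of places at which their 31-base words occur. All 5 AP-2-dependent regions did so too. The 4 others were the weakest peak at Fras1 (80.6 kb upstream, median 2872 places), the weakest at Frem1 (45.4 kb upstream, 2903 places), a Frem2 peak 65.9 kb upstream (208 places) and the weakest at Grip1 (74.2 kb downstream, 25 places). The Fras1 and Frem1 peaks shared sequence with each other, 77.3% of the words of the Frem1 peak being present in the Fras1 peak. In each the AP-2 string GCCNNNGGC recurred at a spacing of 208 bp, 4 times at Fras1 and 6 times at Frem1. These 2 peaks supplied 2 of the 3 matches to GCCNNNGGC near summits at the 4 loci. Reads had been placed at up to 10 positions each, and how many of those behind these peaks came from the loci was not tested.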
